A study of Mus musculus with 20 samples.

Results

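The 43 genes described here encode the noncollagen matrix of connective tissue, the enzymes that crosslink and process matrix, and the markers by which fibroblasts and myofibroblasts are recognized. They were listed by name and function, and all 43 were measured and passed the filter on dim probes, among 36920 tested probes of 55681 on the array. The arrays measured total RNA from the diaphragm of female C57Bl/6 mice, 8 weeks of age at injection, collected 12 weeks after an intrapleural injection. Each of the 5 groups held 4 mice, and each mouse had its own array. The control mice received the vehicle, saline with bovine serum albumin, and every fiber was given in that vehicle. SFA (ground, short amosite asbestos) and LFA (amosite enriched for long fibers) were given at 25 µg per mouse. Carbon nanotubes, short in NTS and long in NTL, were given at 5 µg per mouse, so asbestos and nanotubes were not compared at the same dose. The tissue is a bulk sample, and fewer cells of a type and less RNA per cell cannot be told apart.

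Fibroblasts lay down fibronectin and other adhesive glycoproteins early in repair. Lysyl oxidases later crosslink collagen and elastin, and the small leucine-rich proteoglycans coat and space the collagen fibrils. Versican binds the polysaccharide hyaluronan in a loose, hydrated matrix that is typical of inflamed tissue. Myofibroblasts are activated fibroblasts that gain smooth muscle actin, encoded by Acta2, and contract the matrix. Acta2 is also abundant in the smooth muscle of vessels.

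All levels below are log2 signals relative to the 75th percentile of the array, so that 0 marks a signal equal to that percentile and a difference of 1 is a 2-fold change. The levels of different genes come from different probes and are not compared with each other. A gene is read from its brightest probe, and a change was called when limma gave a Benjamini-Hochberg adjusted p under 0.05, over all tested probes, with a change of at least 2-fold. The diaphragm was recognizable as muscle, since the mean of 9 skeletal muscle markers ran from 6.64 to 8.54 over the 20 mice. Liver markers varied widely within groups, from −2.49 to 8.92, and an index that compares probes toward the 5′ and 3′ ends of 1909 transcripts ran from −2.20 to −0.91, a lower value meaning less 5′ signal. The typical tested probe was lower than in control, by a median of −0.28 in LFA and of −0.25 in NTL, so that a gene at 0 lay above the typical probe. Under quantile normalization these medians were −0.08 and −0.09.

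The sequences just upstream of the transcription start are shown for the genes that rose in a long-fiber group and had a single RefSeq promoter window (GRCm38.p6), and for Acta2, which did not rise. Each gives the 130 bases before the start, 5′ to 3′ on the strand of the gene, and capitals mark a TATA box (TATAAA on either strand) or a CArG box with 1 G or C in its central A and T run, the element bound by serum response factor in contractile genes.
Thbs2, chr17:14694263-14694392, minus strand: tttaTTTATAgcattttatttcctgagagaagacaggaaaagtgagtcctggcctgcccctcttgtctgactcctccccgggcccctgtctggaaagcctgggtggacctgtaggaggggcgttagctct
Vcan, chr13:89742513-89742642, minus strand: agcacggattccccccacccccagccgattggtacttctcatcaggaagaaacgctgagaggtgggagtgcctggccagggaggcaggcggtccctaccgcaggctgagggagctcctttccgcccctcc
Has1, chr17:17855189-17855318, minus strand: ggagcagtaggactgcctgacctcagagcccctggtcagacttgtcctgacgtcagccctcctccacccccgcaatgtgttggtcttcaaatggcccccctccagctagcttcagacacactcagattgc
Fbn1, chr2:125506439-125506568, minus strand: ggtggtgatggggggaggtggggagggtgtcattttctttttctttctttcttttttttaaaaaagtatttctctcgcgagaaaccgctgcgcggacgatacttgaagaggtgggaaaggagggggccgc
S100a4, chr3:90603640-90603769, plus strand: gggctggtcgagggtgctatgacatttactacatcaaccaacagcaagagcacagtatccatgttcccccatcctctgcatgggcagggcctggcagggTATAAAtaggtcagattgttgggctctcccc
Acta2, chr19:34255374-34255503, minus strand: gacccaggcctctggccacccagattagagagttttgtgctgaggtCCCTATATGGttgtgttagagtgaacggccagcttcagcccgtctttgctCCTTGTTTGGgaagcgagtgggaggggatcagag

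RefSeq windows, 250 bases before to 50 bases after the start, were found for 23 of the 43 genes, 30 windows in all. A gene was counted for a motif if any of its windows held it, whereas the share of all windows counts each window. The 2 shares are therefore in unlike units, and a gene with more windows has more chances of a match. The S100a4 window held a TATA box 31 bases upstream of the start, and that of Thbs2 held one on the other strand 126 bases upstream. A TATA box was present in the windows of 7 of the 23 genes (30.4%; Aspn, Ogn, Postn, S100a4, Thbs2, Tnc and Vim) and in 13.6% of all 32851 windows. Acta2 held 2 CArG boxes with 1 G or C in the core, 84 and 34 bases upstream. That form occurred in 2 of the 23 genes (8.70%; Acta2 and Fbln2) and in 8.50% of all windows. The strict CArG box occurred in 0 of the 23 genes and in 1.63% of windows. The AP-1 motif TGANTCA occurred in 1 gene (4.35%; Efemp1) and in 7.81% of windows. These are matches of letters and not measured binding.

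To ask which matrix genes differed 12 weeks after long fibers, LFA and NTL were each compared with control. Fn1, Thbs1, Cthrc1, Vcan and S100a4 were increased after both long fibers. For Vcan this held for the brightest probe only, as a second tested probe changed by −0.11 in LFA and 0.22 in NTL. Lumican, fibrillin 1 and crosslinking enzymes also passed the test after NTL. Elastin and decorin lay near their control level, no fibulin was called, and Acta2 was not increased. In LFA, 6 of the 43 genes were called higher and 0 lower, where 2.22% of all tested probes were called higher and 1.72% lower. In NTL, 11 were called higher and 0 lower, against 3.63% and 3.18% of all probes. The genes called in both were 5 of the 6 and 5 of the 11. The median change over the 43 genes was 0.44 in LFA and 0.74 in NTL, and 33 and 37 of them lay above 0. Both comparisons share the control mice. The count in LFA rested on few mice. It was 1, with Cthrc1 alone, without LFA replicate 2 and again without LFA replicate 4, and it was 3 without control replicate 1 or control replicate 4. The count in NTL was 6 without NTL replicate 2, and 7 without NTL replicate 1, NTL replicate 4 or control replicate 1. With only the compared groups in the fit the counts were 2 (Fn1 and Cthrc1) in LFA and 8 in NTL. An unequal-variance test, which does not share the spread across probes, called 0 in LFA and 1 (Fn1) in NTL when adjusted over all tested probes. When adjusted over the probes changed at least 2-fold, the order of steps in the methods, it called 2 (Fn1 and Cthrc1) in LFA and 12 in NTL, the 11 and Comp. With NTL and control mice paired by replicate number, 15 were called, the 11 and Postn, Comp, Bgn and Loxl2.

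**Figure D1:**
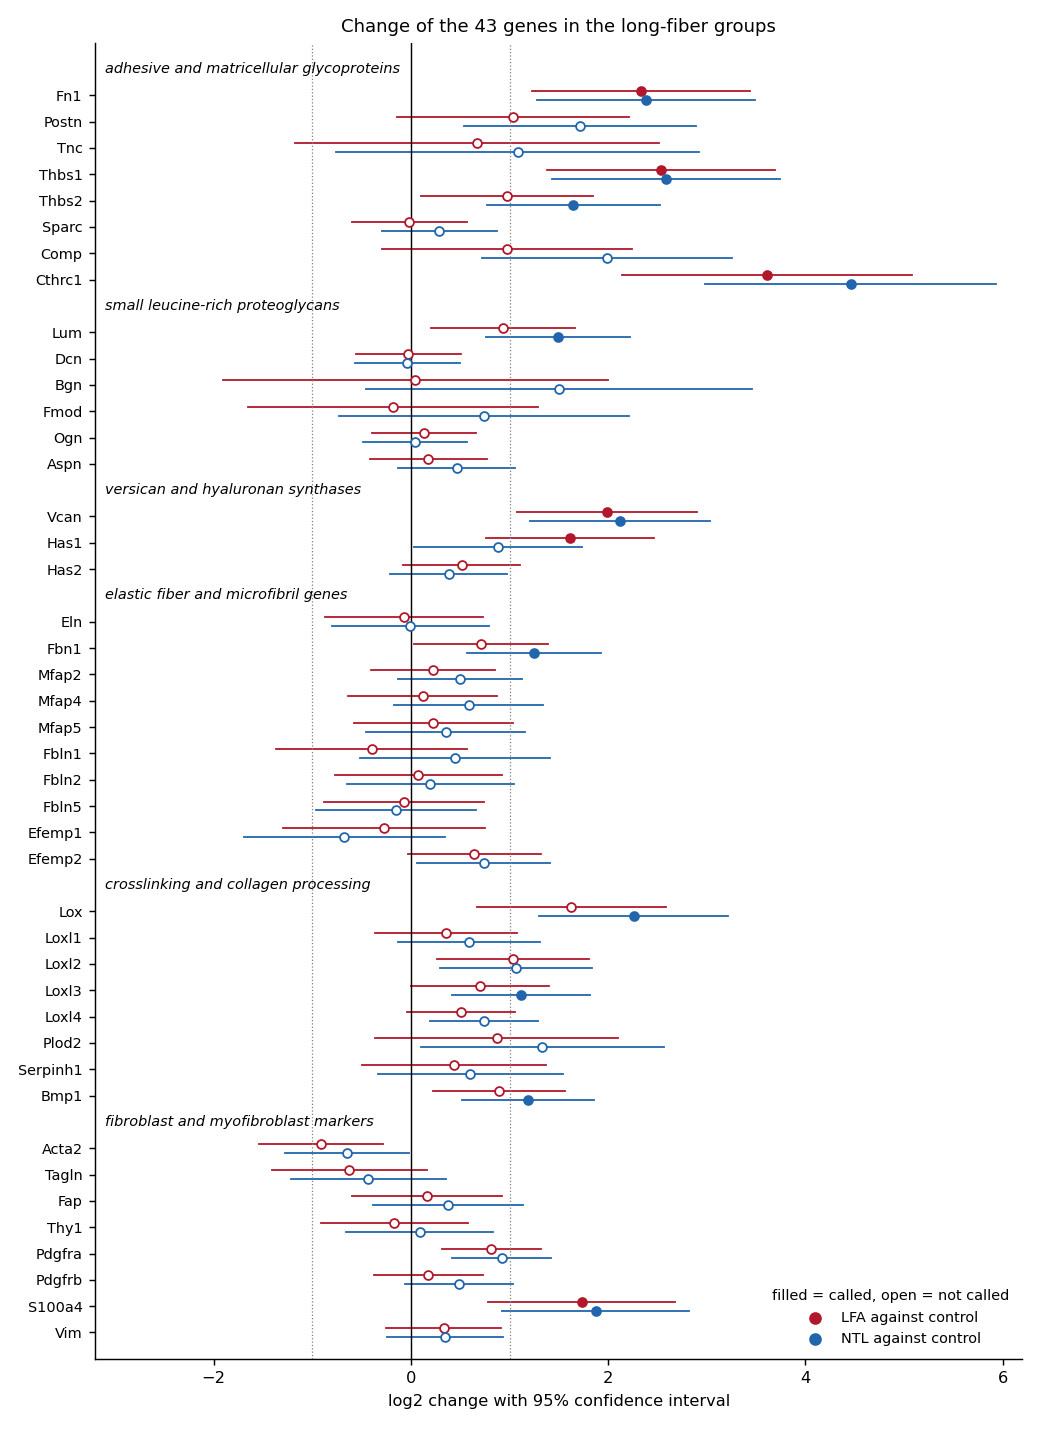
Log2 change of each of the 43 genes against control, with its 95% confidence interval, for LFA (red) and NTL (blue), ordered by role. Filled points were called, dotted lines mark a 2-fold change, and Cthrc1, dim in control, has the changes farthest from 0 with this background correction, at 3.61 in LFA and 4.46 in NTL, while Acta2 lies below 0 in both.

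Among the 8 adhesive and matricellular glycoproteins, 3 were called in LFA and 4 in NTL, with medians of 1.0 and 1.85. Fn1 encodes fibronectin, the adhesive glycoprotein that cells bind through integrins (probe at NCBI37 chr1:71632116-71632175). Its level was 4.89, 5.81, 5.10 and 4.88 in the control mice, 7.05, 7.74, 7.68 and 7.54 in the LFA mice, and 7.40, 8.28, 6.97 and 7.55 in the NTL mice. Every mouse of both long-fiber groups lay above every control mouse. The increase was 5.05-fold in LFA (2.34 ± 0.53 SE, adjusted p = 0.0202) and 5.21-fold in NTL (2.38 ± 0.53, adjusted p = 0.0100). The SFA mice lay at 6.32, 6.22, 5.79 and 5.00, of which 2 lay within the control range and 2 between the control and long-fiber mice. The NTS mice were split, at 4.99, 4.39, 6.26 and 7.66.

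Fibronectin is also made by hepatocytes, so its level is given beside that of 7 liver markers. In the NTS mice the liver marker level was 0.06, −1.36, 8.92 and 8.69, and the latter 2 mice were those with the higher Fn1. In the LFA mice it was 7.32, −1.70, 7.84 and −1.50, and Fn1 was 7.74 and 7.54 in the mice with the low liver level. With the liver marker level as a covariate the Fn1 change was 2.16 in LFA (adjusted p = 0.0252) and 2.20 in NTL (adjusted p = 0.0126). The part of liver tissue in the Fn1 level was not tested further.

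**Figure D2:**
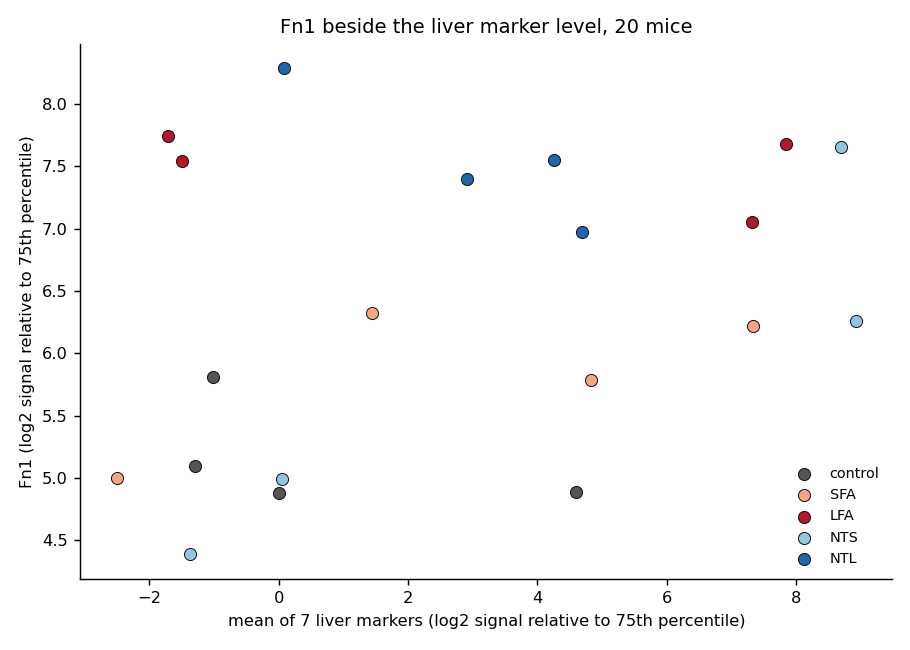
Fn1 level of each of the 20 mice (y axis) beside the mean level of 7 liver markers in the same mouse (x axis), both as log2 signal relative to the 75th percentile. The 8 LFA and NTL mice lie between 6.97 and 8.28 at low and high liver levels alike, and the NTS mouse at 7.66 has a liver level of 8.69.

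Thbs1 encodes thrombospondin 1, a matricellular protein known to activate latent TGF-beta (probe at chr2:117952585-117952644). The control mice lay at 0.53, −1.41, 0.86 and 0.40, the LFA mice at 2.61, 3.26, 0.91 and 3.74, and the NTL mice at 2.54, 2.72, 2.19 and 3.27. The groups did not overlap, although LFA replicate 3 was only just above the highest control. The increase was 5.80-fold in LFA (2.54 ± 0.55, adjusted p = 0.0167) and 6.00-fold in NTL (2.59 ± 0.55, adjusted p = 0.00809). Its relative Thbs2 was at −0.18, −0.07, −0.26 and 0.33 in control and at 1.87, 2.01, 0.76 and 1.76 in NTL, a 3.13-fold increase (1.65 ± 0.42, adjusted p = 0.0218). The LFA mice were at 0.18, 2.12, 0.38 and 1.03 for Thbs2, overlapping control (0.97 ± 0.42, adjusted p = 0.168).

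Cthrc1, a secreted protein of injured vessels and activated fibroblasts, had the largest change of the 43 genes in both comparisons, in LFA not under normexp background correction (probe at chr15:38918358-38918417). It was dim in control, where it was well above background on 2 of 4 arrays, and at −5.14, −4.72, −4.32 and −3.61. The LFA mice lay at −1.18, 0.74, −2.53 and −0.38 and the NTL mice at 0.43, 1.22, −1.93 and 0.33. Both groups lay wholly above control, a 12.2-fold increase in LFA (3.61 ± 0.70, adjusted p = 0.00899) and a 22.0-fold increase in NTL (4.46 ± 0.70, adjusted p = 0.000948). Since the control signal was near background, the fold depends on the background correction. With normexp the changes were 1.96 and 2.68, both still called, and in LFA Cthrc1 then ranked 3, behind Thbs1 at 2.40 as the first. The SFA mice were at −1.97, −4.62, −2.83 and −3.60, and the NTS mice at −3.31, −3.81, −4.33 and −3.46, both overlapping control.

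The other adhesive genes were not called against control. Postn, the periostin of healing and fibrotic tissue, was at 1.81, 2.58, 1.37 and 1.26 in control, 2.08, 3.68, 2.50 and 2.90 in LFA, and 3.51, 4.89, 2.06 and 3.41 in NTL. The groups overlapped, and the change was 1.04 ± 0.56 in LFA (adjusted p = 0.267) and 1.71 ± 0.56 in NTL (adjusted p = 0.0684). Comp, a thrombospondin of tendon and cartilage, was higher in every NTL mouse than in any control mouse but missed the threshold (1.99 ± 0.60, adjusted p = 0.0501). Tnc, which encodes tenascin C, was well above background on 11 of 20 arrays only. It was at −5.11, −6.37, −5.28 and −2.39 in control, −5.06, −2.38, −4.82 and −4.20 in LFA, and −2.80, −4.29, −4.83 and −2.89 in NTL, overlapping throughout, and its change went below 0 with normexp (−0.12 in LFA and −0.01 in NTL). Sparc, a collagen-binding matricellular protein, changed by −0.02 ± 0.28 in LFA and 0.29 ± 0.28 in NTL. A second Sparc probe gave 0.19 ± 0.34 and 0.79 ± 0.34, not called either.

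Among the 6 small leucine-rich proteoglycans, 0 were called in LFA and 1 in NTL. This was Lum, which encodes lumican, a keratan sulfate proteoglycan on collagen fibrils. Its level was 4.65, 5.84, 4.69 and 4.65 in control, with replicate 2 apart from the others, and 6.49, 7.19, 5.92 and 6.19 in NTL. The increase was 2.81-fold (1.49 ± 0.35, adjusted p = 0.0140), and the lowest NTL mouse was above the highest control mouse. The LFA mice were at 5.42, 6.42, 5.33 and 6.40, and the change was 0.94 ± 0.35 (adjusted p = 0.119). Dcn (decorin) and Ogn (osteoglycin), 2 further proteoglycans of this class, differed by at most 0.13 from control in LFA or NTL. The 95% interval of the Dcn change was −0.56 to 0.51 in LFA and −0.57 to 0.50 in NTL, so a 2-fold change lay outside it. Bgn (biglycan) was not called. It ran from −2.01 to 2.03 in control, and its interval in LFA was −1.91 to 2.0. Fmod (fibromodulin), at −0.18 ± 0.70 in LFA and 0.74 ± 0.70 in NTL, was widely spread too, and Aspn (asporin) changed by 0.18 ± 0.28 and 0.46 ± 0.28.

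Of the 3 genes of the versican and hyaluronan group, Vcan and Has1 were called in LFA, and Vcan in NTL. Vcan encodes versican, and its brightest probe (chr13:89795080-89795139) gave −0.57, −1.08, −0.86 and −1.26 in control, 0.47, 1.43, 0.24 and 2.03 in LFA, and 1.14, 2.02, 0.41 and 1.14 in NTL. The long-fiber groups were wholly above control, a 3.96-fold increase in LFA (1.99 ± 0.43, adjusted p = 0.0172) and a 4.34-fold increase in NTL (2.12 ± 0.43, adjusted p = 0.00634). A second tested Vcan probe lies upstream in the transcript (chr13:89851810-89851869) and did not share this change. It gave −1.38, −1.39, −1.35 and −0.92 in control, −1.50, −0.26, −2.17 and −1.56 in LFA, and −0.45, −1.89, −1.31 and −0.52 in NTL. Its change was −0.11 ± 0.43 in LFA (adjusted p = 0.888) and 0.22 ± 0.43 in NTL (adjusted p = 0.812). In 4 of the 5 groups the lowest mouse of the upstream probe was the mouse with the lowest 5′ to 3′ index, and the part of the index in the disagreement was not tested. The mean over both probes gave 0.94 in LFA, which was not called, and 1.17 in NTL, which was.

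Has1 and Has2 encode hyaluronan synthases of the plasma membrane. Has1 was at −1.74, −0.54, −1.18 and −0.68 in control and at −0.12, 0.23, 0.67 and 1.54 in LFA, above control in every mouse, a 3.06-fold increase (1.61 ± 0.41, adjusted p = 0.0335). The NTL mice were at −0.83, 0.47, −0.45 and 0.19, overlapping control (0.88 ± 0.41, adjusted p = 0.198). The difference between LFA and NTL was 0.73 (95% interval −0.12 to 1.59, adjusted p = 1.0), so a difference between the 2 long fibers was not shown. Has2 changed by 0.52 ± 0.28 in LFA and 0.38 ± 0.28 in NTL.

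Of the 10 elastic fiber and microfibril genes, 0 were called in LFA and 1 in NTL. Fbn1 encodes fibrillin 1, the backbone of microfibrils, and was at 1.77, 1.57, 1.71 and 1.81 in control, a narrow range. The NTL mice were at 3.12, 3.32, 2.52 and 2.91, all above control, a 2.38-fold increase (1.25 ± 0.32, adjusted p = 0.0241). The LFA mice were at 2.08, 3.39, 1.70 and 2.54 (0.71 ± 0.32, adjusted p = 0.191). Eln, the elastin gene, was at 0.19, 0.32, −0.14 and 0.36 in control, −0.41, 0.99, −0.24 and 0.11 in LFA, and 0.12, 0.56, 0.29 and −0.26 in NTL. Elastin therefore stayed within 0.07 of control in the mean of either group, and the sign of so small a difference turned with the settings. The 95% interval of its change was −0.87 to 0.73 in LFA and −0.80 to 0.79 in NTL. The fibulins Fbln1, Fbln2 and Fbln5 ran from −0.40 to 0.45, and the microfibril genes Mfap2, Mfap4 and Mfap5 from 0.12 to 0.59. Efemp2, the fibulin 4 that brings lysyl oxidase to elastin, changed by 0.64 ± 0.32 in LFA and 0.74 ± 0.32 in NTL, and neither was called. Its relative Efemp1, fibulin 3, was at −0.27 ± 0.49 and −0.67 ± 0.49.

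All 8 crosslinking and collagen processing genes had a mean above control after both long fibers, with medians of 0.78 in LFA and 1.09 in NTL. None of the 8 was called in LFA, and 3 were called in NTL. In LFA 3 of the 8 had an unadjusted p under 0.05, as did 8813 of the 36920 tested probes. Lox encodes lysyl oxidase, which starts the crosslinking of collagen and elastin. It was at −1.64, −1.72, −2.43 and −2.29 in control, −0.79, 0.63, −1.06 and −0.33 in LFA, and 0.36, 0.79, −0.81 and 0.61 in NTL. Both long-fiber groups were wholly above control. The increase was 4.78-fold in NTL (2.26 ± 0.46, adjusted p = 0.00580), and the change in LFA narrowly missed the threshold (1.63 ± 0.46, adjusted p = 0.0502). A second Lox probe also rose in NTL (2.02 ± 0.59, adjusted p = 0.0409) and had 1.21 ± 0.59 in LFA (adjusted p = 0.215).

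Loxl3, a lysyl oxidase relative, was at −1.65, −0.86, −1.36 and −1.38 in control and 0.10, −0.06, −0.77 and −0.07 in NTL, a 2.16-fold increase (1.11 ± 0.33, adjusted p = 0.0472). Bmp1 encodes the protease that removes the C-propeptide of procollagens. It was at 3.06, 3.72, 3.22 and 3.69 in control and 4.73, 4.92, 3.95 and 4.83 in NTL, a 2.27-fold increase (1.18 ± 0.32, adjusted p = 0.0294). The LFA mice were at 3.86, 5.10, 4.10 and 4.19 for Bmp1, also above every control mouse, but were not called (0.89 ± 0.32, adjusted p = 0.106). Of 2 further Bmp1 probes, 1 gave 1.11 in NTL and the other, measured in 2 of the 4 NTL mice only, −0.08, and neither was called. Loxl2, at 1.03 ± 0.37 in LFA and 1.07 ± 0.37 in NTL, and Plod2, a collagen lysyl hydroxylase, at 0.87 ± 0.59 and 1.33 ± 0.59, were not called. Serpinh1, the collagen chaperone of the endoplasmic reticulum, changed by 0.44 ± 0.45 and 0.60 ± 0.45. The lysyl oxidase relatives Loxl1 (0.36 ± 0.34 and 0.58 ± 0.34) and Loxl4 (0.51 ± 0.26 and 0.74 ± 0.26) were not called either.

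**Figure D3:**
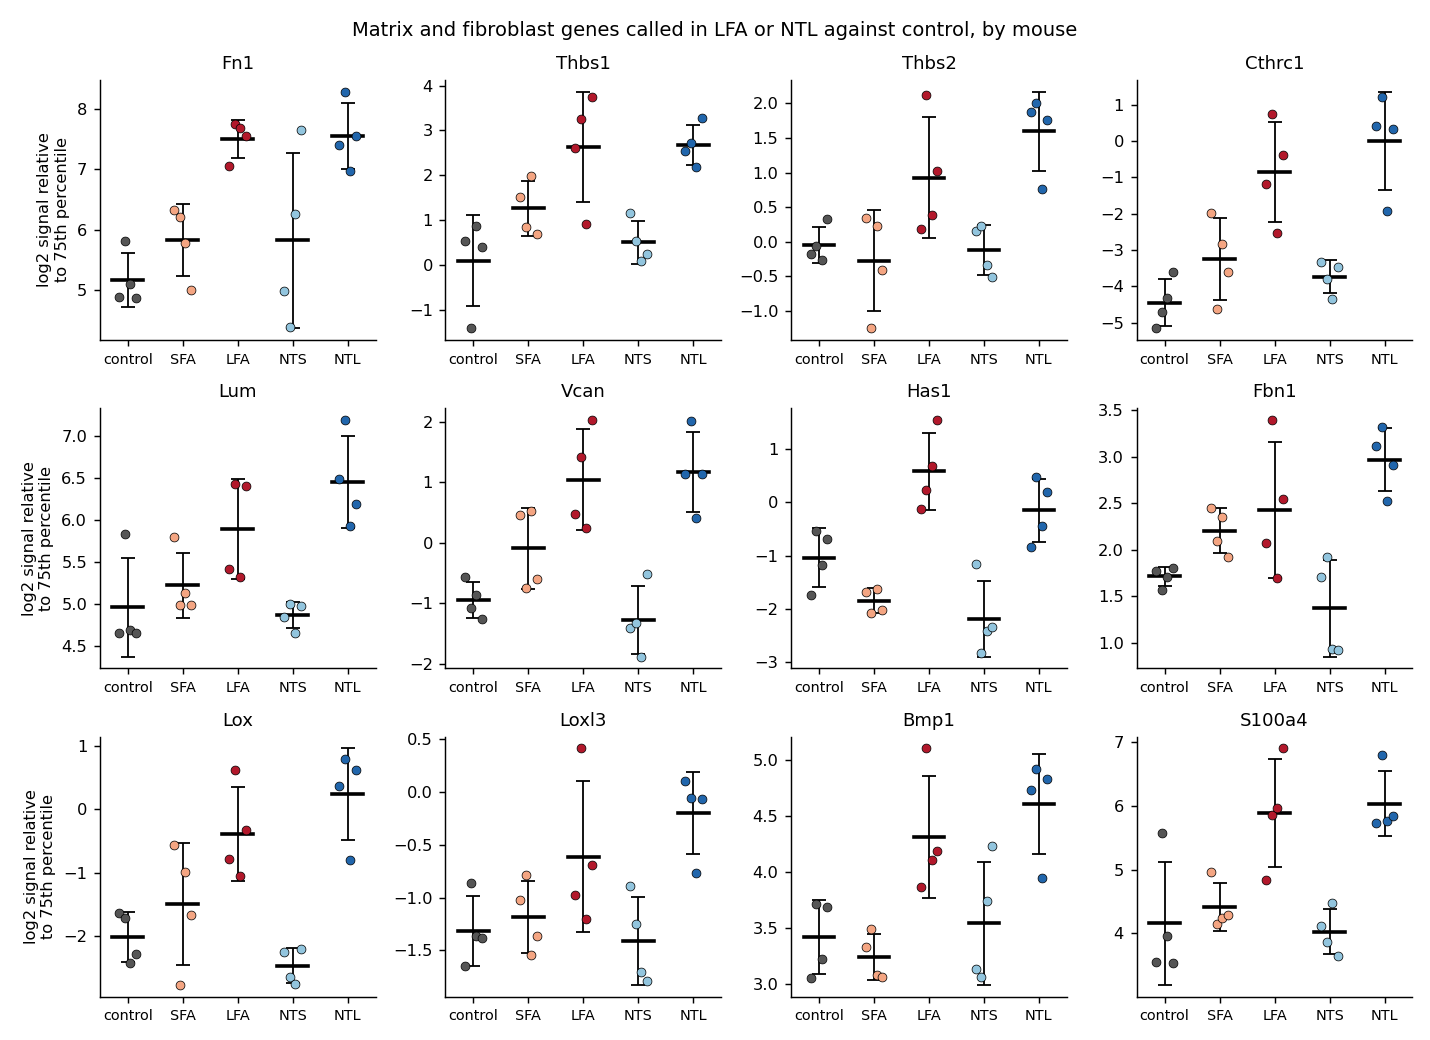
Level of the 12 genes called in LFA or NTL against control in each mouse of the 5 groups, as log2 signal relative to the 75th percentile; horizontal bars are the mean of 4 mice and whiskers the SD. For Fn1, Thbs1, Cthrc1, Vcan and Lox every LFA and NTL mouse lies above every control mouse, and LFA replicate 2 and NTL replicate 2 are often the highest of their group.

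The fibroblast and myofibroblast markers did not move together. S100a4, a calcium-binding protein used as a fibroblast marker and also made by macrophages, was at 3.55, 5.58, 3.96 and 3.54 in control, 4.83, 5.86, 5.97 and 6.89 in LFA, and 5.73, 6.79, 5.75 and 5.84 in NTL. The NTL mice were above every control mouse, and the LFA mice overlapped the high control replicate 2. The increase was 3.32-fold in LFA (1.73 ± 0.45, adjusted p = 0.0380) and 3.66-fold in NTL (1.87 ± 0.45, adjusted p = 0.0167). A second S100a4 probe gave 2.02 ± 0.48 and 1.89 ± 0.48, called in both. Macrophage markers moved with it. Of 8 such markers, 6 were called higher in LFA and in NTL, and their mean level ran from 1.73 to 2.23 in control, 3.07 to 4.06 in LFA, and 3.80 to 4.01 in NTL. The part of macrophages in the S100a4 increase, or in those of Fn1, Thbs1 and Vcan, was not tested.

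Acta2, the smooth muscle actin that defines myofibroblasts, was at 4.71, 4.98, 4.77 and 5.13 in control. It was at 3.38, 4.27, 4.29 and 4.02 in LFA and 4.04, 4.29, 4.47 and 4.21 in NTL. Every mouse of the long-fiber groups was below every control mouse, but neither change passed the test (−0.91 ± 0.30, adjusted p = 0.0846 in LFA and −0.64 ± 0.30, adjusted p = 0.200 in NTL). Their 95% intervals, −1.54 to −0.28 and −1.27 to −0.02, held no increase. Acta2 was the only one of the 43 genes that was lower without overlap in either group, where 11.6% of probes were so in LFA and 13.8% in NTL. Those higher without overlap numbered 8 in LFA and 14 in NTL, against 4.6% and 6.34% of probes.

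Tagln, a second contractile marker, lay at 4.83, 5.92, 4.83 and 5.01 in control and 3.64, 5.32, 4.57 and 4.56 in LFA (−0.63 ± 0.37, adjusted p = 0.313). In NTL its change was −0.43 ± 0.37 and fell to 0.00 under quantile normalization. Genes of the smooth muscle contractile apparatus moved alongside, as all 9 had a mean below control in LFA and in NTL, with medians of −1.62 and −0.71. Myl9, a myosin light chain, was the only one called, lower in both (−1.09 in LFA, adjusted p = 0.0308, and −1.02 in NTL, adjusted p = 0.0252). Short fibers went the same way, with 7 of the 9 below control in SFA (median −0.40) and 8 in NTS (median −0.57). In LFA against SFA all 9 had the lower mean in LFA, with a median of −0.69 against −0.17 over all probes, and 0 were called. In NTL against NTS 6 of the 9 had the lower mean in NTL, with a median of −0.25 against −0.26 over all probes. The mean of 9 skeletal muscle markers was also lower, 7.98 to 8.27 in control against 6.85 to 7.43 in LFA and 6.64 to 6.85 in NTL. The part of the smooth or skeletal muscle content in the Acta2 level was not tested.

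**Figure D4:**
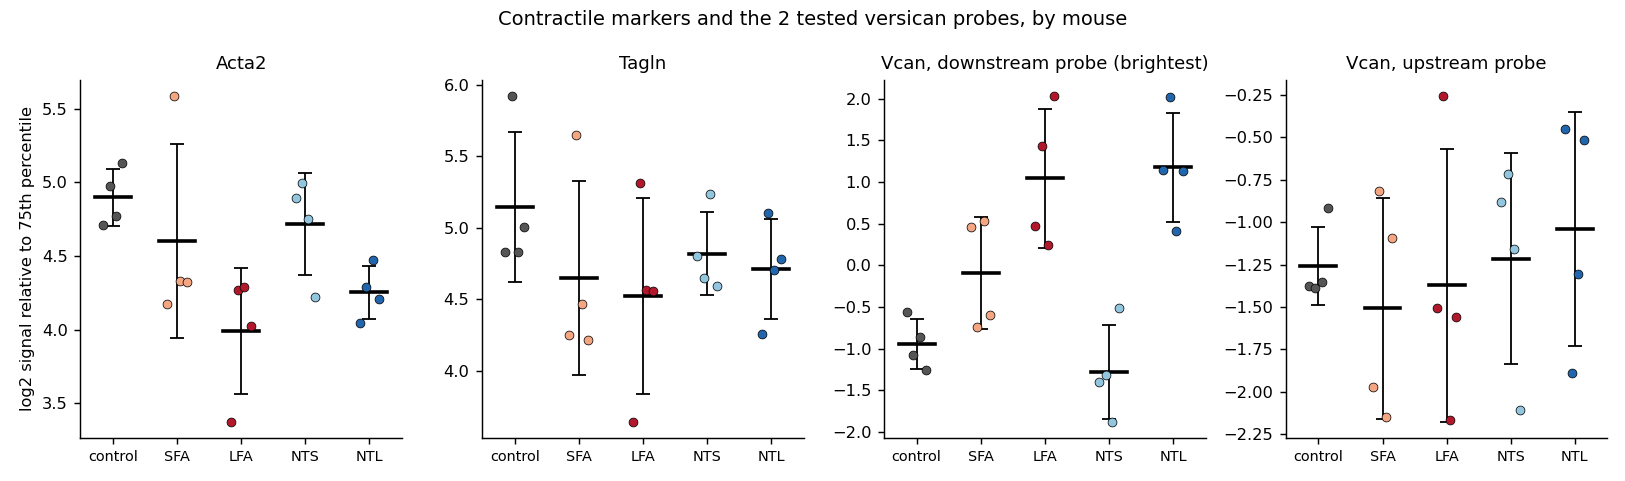
Level in each mouse of Acta2, Tagln and the 2 tested Vcan probes, as log2 signal relative to the 75th percentile; horizontal bars are the mean of 4 mice and whiskers the SD. The Acta2 levels of LFA and NTL, 3.38 to 4.47, lie below those of control, 4.71 to 5.13, and the Vcan increase is seen with the downstream probe and not with the upstream one.

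Pdgfra, the PDGF receptor of resting and activated fibroblasts, was at 1.50, 1.21, 1.59 and 1.11 in control, 2.02, 2.39, 1.66 and 2.61 in LFA, and 2.24, 2.34, 2.15 and 2.35 in NTL. Every long-fiber mouse lay above control. The change was 0.82 ± 0.24 in LFA (adjusted p = 0.0598) and 0.92 ± 0.24 in NTL (adjusted p = 0.0256), in NTL significant but below 2-fold, so neither was called. Pdgfrb, the PDGF receptor of pericytes and fibroblasts, changed by 0.18 ± 0.26 and 0.49 ± 0.26. Fap and Thy1, surface markers of fibroblasts, lay between −0.17 and 0.37. Vim, the vimentin of mesenchymal cells, changed by 0.33 ± 0.28 in LFA and 0.34 ± 0.28 in NTL.

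Short fibers were compared with control to ask whether length mattered within each material. In SFA and in NTS, 0 of the 43 genes and 0% of all tested probes were called by limma, and 0 of the 43 also by the unequal-variance test under either adjustment. An unadjusted p under 0.05 was found for 2 of the 43 in each, and for 843 (SFA) and 1288 (NTS) of the 36920 tested probes. In SFA the 2 genes were Thbs1 (1.17 ± 0.55) and Pdgfra (0.57 ± 0.24), both above control. In NTS they were Has1 (−1.14 ± 0.41) and Vim (−0.66 ± 0.28), both below. Fbn1, at 2.45, 2.10, 2.35 and 1.92, and Pdgfrb, at 2.89, 2.61, 2.30 and 2.33, were above every control mouse in SFA, where 0.561% of probes were so. The median over the 43 genes was 0.04 in SFA and −0.24 in NTS, against −0.10 and −0.06 over all probes. In SFA the median was 0.27 without control replicate 2.

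The direct comparison of long with short fibers of the same material and dose gave more calls for nanotubes. Both asbestos preparations came from the same batch of amosite. The short nanotubes were bought from a company and the long ones were made in an academic laboratory, so NTL and NTS differed in source as well as in length. In NTL against NTS, 17 of the 43 genes were called higher and 0 lower, against 4.89% and 2.71% of all probes, and the median was 1.0. These were all 11 genes called against control, and Postn, Has1, Efemp2, Loxl2, Pdgfra and Vim. Without overlap, 20 of the 43 genes were higher in NTL than in NTS, where 7.61% of probes were so. Lox rose 6.54-fold (2.71 ± 0.46, adjusted p = 0.00112) and was at −2.25, −2.65, −2.77 and −2.21 in NTS. Vcan rose 5.48-fold (2.45 ± 0.43, adjusted p = 0.00168), and its NTS mice were at −1.40, −1.32, −1.88 and −0.52. The upstream Vcan probe again did not share this change (0.17 ± 0.43, adjusted p = 0.830). Of Sparc, the brightest probe was not called (0.44), and the second was (1.31 ± 0.34, adjusted p = 0.0215). The same held for Fbln5, whose brightest probe was at 0.22. Its second probe, well above background on 4 of 20 arrays, was at 1.28 ± 0.36 (adjusted p = 0.0363). The other probes of Loxl2 (1.11 and 0.85) and of Bmp1 (0.47 and −0.17) were not called. Cthrc1 rose 13.4-fold (3.74 ± 0.70, adjusted p = 0.00263). Pdgfra was at 1.26, 1.06, 0.59 and 0.98 in NTS, all below the NTL mice, a 2.46-fold increase (1.30 ± 0.24, adjusted p = 0.00238).

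For the genes called here and not against control, the NTS levels are given beside those of NTL, and none was called in NTS against control. Postn was at 0.67, 1.21, 0.62 and 2.23 in NTS and rose 4.87-fold (2.28 ± 0.56, adjusted p = 0.0166), although NTL and NTS still overlapped. Has1 was at −1.17, −2.82, −2.41 and −2.34 in NTS and rose 4.07-fold (2.02 ± 0.41, adjusted p = 0.00433), with no overlap. Vim was at 5.71, 5.77, 5.48 and 5.58 in NTS and at 6.44, 7.00, 6.73 and 6.39 in NTL, a 2.0-fold increase (1.0 ± 0.28, adjusted p = 0.0317). Efemp2 was at 2.47, 2.41, 2.54 and 2.59 in NTS and 3.54, 4.28, 3.20 and 3.59 in NTL, a 2.22-fold increase without overlap (1.15 ± 0.32, adjusted p = 0.0328). Loxl2 was at 2.97, 2.88, 2.23 and 2.67 in NTS and 4.20, 4.57, 2.97 and 4.23 in NTL, a 2.47-fold increase (1.31 ± 0.37, adjusted p = 0.0329), with the lowest NTL mouse only just above the highest NTS mouse. For Fn1 the groups overlapped through the NTS mouse at 7.66 and the increase was 3.31-fold (1.73 ± 0.53, adjusted p = 0.0481). The count was 8 without NTL replicate 2, 10 without NTS replicate 3 or NTL replicate 4, and 11 without NTS replicate 2 or NTL replicate 1. It was 11 with only these groups in the fit, 1 (Thbs1) by the unequal-variance test over all probes and 13 by that test over the probes changed 2-fold. With slide as a block it was 3 (Vcan, Has1 and Lox), and the groups met on 1 slide only.

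In LFA against SFA, 1 of the 43 genes was called, where 1.03% of all probes were called higher and 0.133% lower. Has1 was 5.38-fold higher in LFA than in SFA (2.43 ± 0.41, adjusted p = 0.00508). The SFA mice, at −1.67, −2.08, −1.63 and −2.02, were all below the LFA mice. Part of this difference lay in SFA, where Has1 was below control (−0.81, not called), while the change in LFA against control was 1.61. The count was 2 without LFA replicate 3 or NTS replicate 4. Besides Has1, only Fn1 (1.67 ± 0.53, adjusted p = 0.180) and Bmp1 (1.07 ± 0.32, adjusted p = 0.147) were higher without overlap, where 3.15% of probes were so, and neither was called, and Cthrc1 (2.42 ± 0.70, adjusted p = 0.130) overlapped. In all, 12 of the 43 genes had an unadjusted p under 0.05, as did 4616 of the 36920 tested probes. The difference between the 2 length effects was tested directly. It was called for 0 of the 43 genes and 0% of all probes. The difference was below 0, the nanotube effect being the higher, for 40 of the 43 genes. Its median was −0.52, against 0.01 over all probes. An unadjusted p under 0.05 was found for 7 of the 43 genes, with Pdgfra (−1.06 ± 0.34) and Fbn1 (−1.37 ± 0.46) the lowest p, and for 1273 of the 36920 tested probes. Of the 4 NTL mice, 3 lay on slide 3, which held no NTS mouse, and 2 of the 4 NTS mice lay on slide 1, which held no NTL mouse. The nanotube length effect is therefore partly confounded with slide, and it is also confounded with the source of the nanotubes. This count separates neither from length. For no single gene of the 43 was a different length effect of the materials shown.

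**Figure D5:**
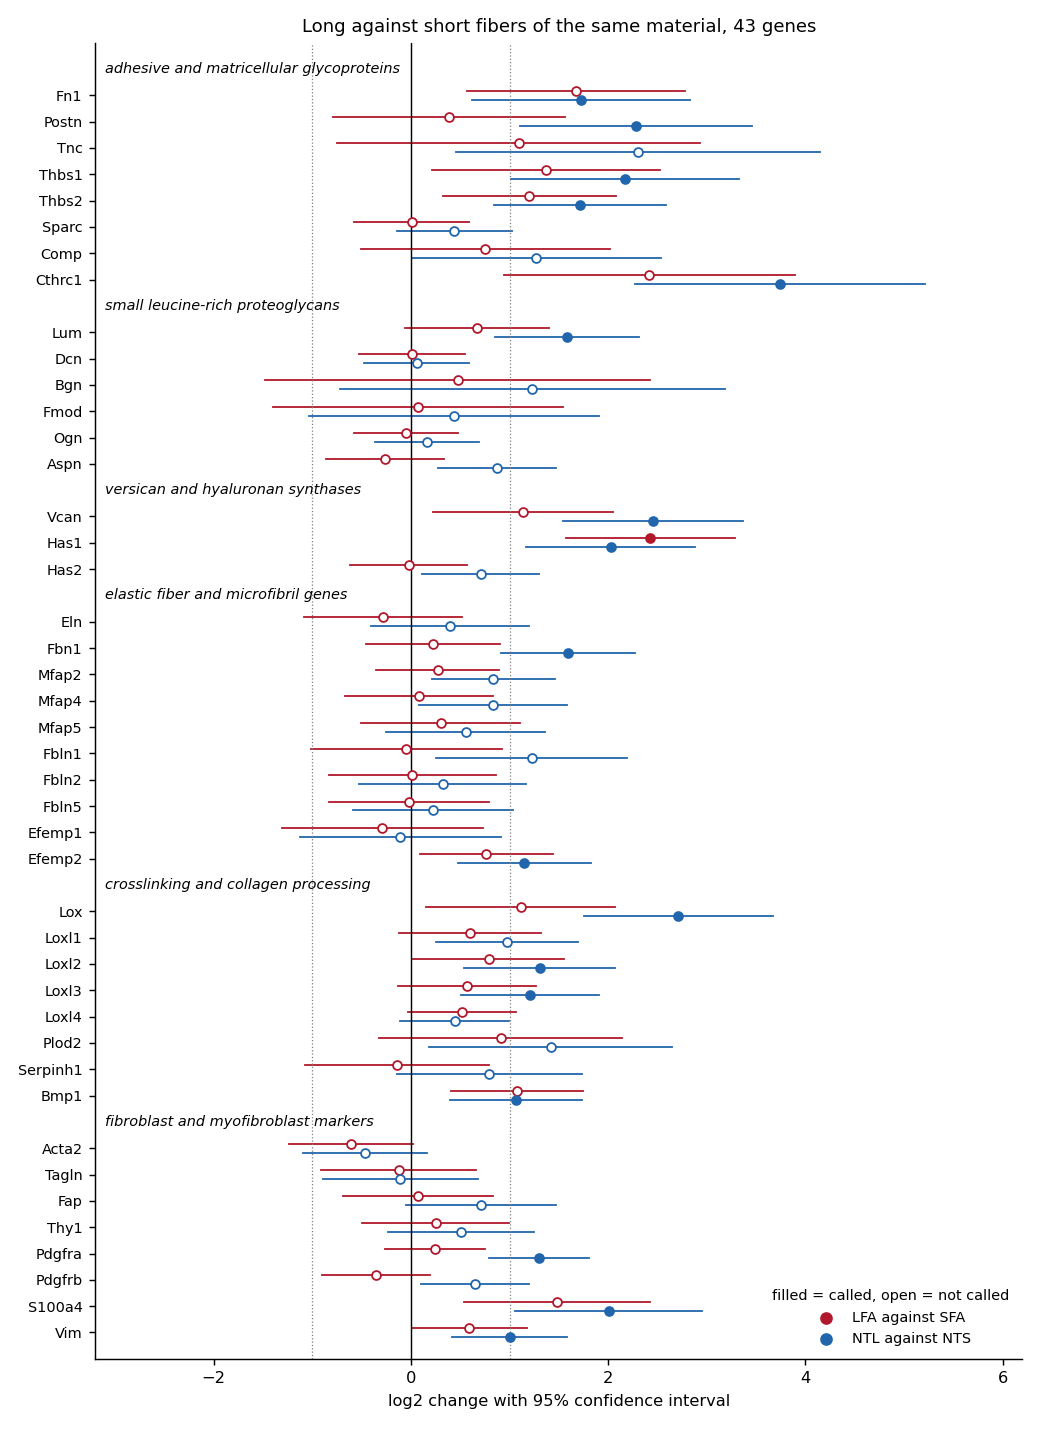
Log2 difference of each of the 43 genes between long and short fibers of the same material, with its 95% confidence interval, for LFA against SFA (red) and NTL against NTS (blue). Filled points were called: 17 genes for nanotubes and Has1 alone for asbestos, with many intervals of the 2 materials overlapping.

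LFA and NTL differed in dose and material, and 0 of the 43 genes and 0% of all probes were called between them. No gene of the 43 had an unadjusted p under 0.05, which 572 of the 36920 tested probes had. The median difference was −0.23, against −0.02 over all probes, and 37 of the 43 genes had the lower mean in LFA. SFA and NTS, which also differed in dose, had 0 calls and a median of 0.32, against −0.06 over all probes, with 35 genes higher in SFA. The share of all probes in these directions was not counted. In that comparison, added after the data were seen, Aspn, Has2, Pdgfra and Pdgfrb were higher in every SFA mouse than in any NTS mouse, where 1.24% of probes were so.

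Within a group, the genes tended to be high or low in the same mice. The counts below were not made over all tested probes, so whether this was particular to these genes was not tested. LFA replicate 2 was the highest of its group for 29 of the 43 genes and LFA replicate 1 for 0. NTL replicate 2 was the highest for 28, and NTL replicate 3 the lowest for 31. Control replicate 2 was the highest for 22, among them Lum, Dcn, Fbln5, Efemp1, Efemp2 and Tagln, for which it stood apart from the other 3 control mice. That array was also the dimmest, with a 75th percentile of 294 where the others ran from 339 to 996. The mouse with the lowest 5′ to 3′ index of each group (control replicate 2, SFA replicate 1, LFA replicate 3, NTS replicate 4 and NTL replicate 2) gave the lowest Bgn of its group in 5 of 5 groups, and the lowest Fmod, Plod2 and Serpinh1 in 4 of 5. The same mice gave the highest Fap in 5 of 5 groups and the highest Fn1, Postn, Fbln5, Efemp1 and Efemp2 in 4 of 5. With the index as a covariate, the Fn1 change was 1.88 in LFA (adjusted p = 0.0132) and 2.13 in NTL (adjusted p = 0.00259). In that fit Bgn was called in NTL (2.12 ± 0.38, adjusted p = 0.00192) and lay at 1.15 ± 0.39 in LFA (adjusted p = 0.0676). Plod2 was likewise called in NTL (1.60 ± 0.46, adjusted p = 0.0249) and not in LFA (1.36 ± 0.48, adjusted p = 0.0740). Postn and Comp were called in NTL too, and Lox in LFA. In NTL, Efemp1 (−0.97 ± 0.27, adjusted p = 0.0210), Loxl4 (0.84 ± 0.21, adjusted p = 0.0126) and Pdgfra (0.90 ± 0.23, adjusted p = 0.0137) were significant but below 2-fold.

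The arrays lay on 3 slides, of which slide 3 had a scan date of its own. The change could be read within each slide that held both groups. For the 6 genes called in LFA it was positive within all 3 slides, and was 2.73, 1.70 and 2.64 for Fn1. For S100a4 it was 2.89, 0.27 and 1.90. For the 11 genes called in NTL it was positive within both slides that held NTL and control mice, at 5.36 and 4.19 for Cthrc1 and 2.04 and 2.63 for Lox. These genes were chosen by their change in the same mice, so a positive sign was largely fixed beforehand. Each slide held only 1 to 3 mice of a group compared here, and the same was not counted over all probes. With slide as a block, 4 genes were called in LFA (Fn1, Thbs1, Cthrc1 and Vcan) and 7 in NTL (Fn1, Thbs1, Cthrc1, Lum, Vcan, Lox and S100a4).

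Related gene groups, listed by function, are given for context, beside the 2.22% of all probes called higher in LFA and the 3.63% in NTL. Of 18 collagen chains, 2 were called higher in LFA (Col3a1 at 1.21 and Col5a2 at 1.57) and 5 in NTL (Col1a1, Col1a2, Col3a1, Col5a1 and Col5a2, at 1.30 to 1.93), with 0 lower, and their medians were 0.40 and 0.95. Of 17 TGF-beta ligands, receptors, Smads and targets, 0 were called in LFA and 1 in NTL, Ltbp2, a binding protein of microfibrils (1.77, adjusted p = 0.0152), and the medians were 0.09 and 0.24. Of 20 other matrix and basement membrane genes, 2 were called in LFA and 1 in NTL. For the TGF-beta and the other matrix genes these counts are too small to read against the share of all probes. Spp1, the osteopontin made by macrophages and bone cells, was called in both (2.95 and 3.27), and Ecm1 in LFA (1.0). Thus matrix transcripts other than the 43 were also higher for some collagens, while the 20 other matrix and basement membrane genes together had medians of −0.13 and 0.24.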

How the data were processed

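RNA of 20 diaphragms (5 groups of 4 mice) was labeled with a single dye by the authors and hybridized to 60-mer mouse arrays. The authors deposited the scanner output of Agilent Feature Extraction 10.7.3.1 (NCBI37), in which the signal of a spot is a background-subtracted intensity. They also deposited a table of log2 values, normalized in GeneSpring and averaged by group, which served only as an alternative for group differences.

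From the log2 intensity of each spot, the log2 of that array's 75th percentile was subtracted. Spots with an outlier mark, 92 to 204 on each array, were dropped before the spots of a probe were averaged. Of 55681 probes, 36920 were well above background on at least 4 of 20 arrays and were tested. No spot was saturated. The number of arrays limits the precision. Pairs of arrays correlated at 0.865 to 0.986, and none were duplicates. A mean per group was fitted to all arrays with limma 3.58.1 in R 4.3.3, and Benjamini-Hochberg adjustment covered all tested probes. Errors of changes are standard errors of that fit, with 95% intervals. A change was called at an adjusted p under 0.05 and a log2 change of at least 1. A gene is its brightest probe, and the fit was tested on simulated data. Python 3.11.15 with numpy 2.4.6, pandas 2.3.3 and matplotlib 3.10.9 read the files and drew the plots.

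The 43 genes and the other lists were chosen with earlier results of these data known. All 43 are named. Values by mouse are given, for the groups where a gene is first described, for genes called in any comparison and for Acta2, Tagln, Fn1, Postn, Tnc, Eln and Lox. Marker lists were read as the mean of their genes, for liver (7), macrophages (8), skeletal muscle (9), smooth muscle (9), mesothelium (7), endothelium (6), pericytes (5), adipocytes (6) and tendon and cartilage (7). Alternatives were quantile normalization, normexp background correction (offset 50), no filter on dim probes, a filter on all arrays, the mean of all probes of a gene, the authors' table, fitting only the groups compared, a block for slide, a block for replicate number, the unequal-variance test of the methods (adjusted over all tested probes), no limit on the fold, and leaving out each array. The unequal-variance test adjusted over the probes changed at least 2-fold, which is the order in the methods and selects on the change that is tested, covariates for the 5′ to 3′ index and the liver level, and the replicate block with only NTL and control, were chosen after seeing the data. The labels do not say that a replicate number marks a shared animal, litter or day. Only in NTL against control did every pair with the same number deviate together (correlations of 0.112 to 0.689 between pairs). Promoter windows are those of RefSeq (GRCm38.p6), used with no probe coordinates.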

Additional observations from a re-analysis of the deposited data

Results flagged for a closer look

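For some genes a single mouse stood apart from the other 3 of its group, with a gap above the 95% critical value of Dixon's test for 4 samples. This was so for 14 of 215 sets of a gene and a group (6.51%), and chance alone gives about 1 in 20. Control replicate 2 accounted for 6 of them, all high, with Lum at 5.84, Dcn at 9.37, Fbln5 at 4.27, Efemp1 at 5.27, Efemp2 at 3.91 and Tagln at 5.92. SFA replicate 2 was high for Eln (0.84), Acta2 (5.59) and Thy1 (4.65), and SFA replicate 3 was low for Loxl4 (−4.15). NTL replicate 2 was high for Mfap2 (2.71) and S100a4 (6.79). In NTS, replicate 3 was high for Tnc (−3.62) and replicate 4 low for Sparc (7.30). Without control replicate 2 the S100a4 change was 2.20 in LFA and 2.34 in NTL, and the Efemp2 change was 0.97 and 1.07.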

How the results depend on the processing

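Single-gene alternatives were run for 21 of the 43 genes, those whose values by mouse are given, in LFA and NTL against control. Their results kept their direction and side of the threshold in 1206 cases, gained the call in 25, lost it in 74 and changed sign in 14. The authors' table carries no test, and its result counted as kept when the change moved by less than the spread within the groups. Leaving out a mouse of a group not compared cannot change the direction, so the 1206 overstate how stable the results were. Among these 21, the sign changes were in Tnc and Eln. Tnc turned to −0.12 in LFA and −0.014 in NTL with normexp. Eln in LFA was 0.078 with slide as a block, 0.051 with the 5′ to 3′ index and 0.11 with the liver level as a covariate, and −0.36 to 0.10 when single mice were left out. Eln in NTL was 0.0041 with quantile normalization, 0.063 with the index, 0.17 with the liver level, and −0.13 to 0.14 when single mice were left out.

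The number of the 43 genes called in LFA against control was 2 with only the groups compared, 0 by the unequal-variance test over all probes, 2 by that test over the probes changed 2-fold, and 1 (without LFA replicate 2) to 7 (without SFA replicate 1) when single mice were left out. In NTL against control it was 7 with the slide block, 1 by the unequal-variance test, and 6 to 13 without single mice (NTL replicates 2 and 3). In LFA against SFA it was 2 with quantile normalization or the index as a covariate, 0 by the unequal-variance test, and 1 to 2 without single mice. In NTL against NTS it was 11 with only the groups compared, 3 with the slide block, 1 by the unequal-variance test, and 8 to 17 without single mice. The median of the 43 genes in SFA against control ran from −0.060 to 0.27 without single mice. The cause of these changes was not tested.

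With the replicate number as a block over all groups, 4 genes were called in LFA against control, 11 in NTL against control, 1 in LFA against SFA and 15 in NTL against NTS. With NTL and control alone, where same-numbered mice deviated together, the paired fit called 15, the 11 of the fit without the block and Postn, Comp, Bgn and Loxl2. Of all tested probes it called 4526, against 2514 without the block.

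The unequal-variance test over the probes changed 2-fold called 12 of the 43 genes in NTL, 2 in LFA against SFA and 13 in NTL against NTS.

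Over all tested probes, 1455 were called in LFA, and this became 588 with only the groups compared, 899 with the slide block, 915 with no filter, 8 by the unequal-variance test and 2722 with the index. The 2514 in NTL became 1328 with the slide block, 487 by the unequal-variance test and 4162 with the index. The 2807 in NTL against NTS became 1783 with only the groups compared, 756 with the slide block, 387 by the unequal-variance test and 4729 with the index. Quantile normalization moved the share of higher calls, to 983 of 1295 in LFA (from 821 of 1455), 1557 of 2155 in NTL (from 1340 of 2514) and 2249 of 2853 in NTL against NTS (from 1807 of 2807). Signal near background limits Cthrc1 in control and Tnc in all groups.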

Other observations

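Markers of other cell types, read as the mean level per mouse, add to the picture of the tissue. Pericyte markers lay at 2.04 to 2.57 in control, 1.44 to 1.91 in LFA and 1.58 to 1.89 in NTL, with 0 of 5 called in either. Adipocyte markers lay at 4.53 to 5.00 in control, 3.47 to 4.72 in LFA and 3.49 to 4.20 in NTL, with 1 of 6 called lower in LFA (Cidec, a lipid droplet protein) and 3 in NTL. Mesothelial markers overlapped, at 2.20 to 2.73 in control, 2.02 to 3.27 in LFA and 2.01 to 2.41 in NTL, with 0 of 7 called. Endothelial markers (0 of 6 called) and tendon and cartilage markers (0 of 7 called) also overlapped with control in both long-fiber groups.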
